A study of Mus musculus with 2 samples.

Results

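The neurotrophins Bdnf and Ntf3 and the receptors Ntrk2, Ntrk3 and Ngfr were described across the cell types of the mouse prefrontal cortex in single-nucleus RNA sequencing. These 5 genes of the 31040 in the count matrix were taken by their symbols. No measured value entered that rule, although earlier results of these data were known when the members were chosen. Neurotrophins are secreted proteins that neurons use to support survival, dendrite growth and synaptic change. Brain-derived neurotrophic factor (Bdnf) acts mainly through the receptor tyrosine kinase TrkB, encoded by Ntrk2, and neurotrophin-3 (Ntf3) mainly through TrkC, encoded by Ntrk3. The receptor p75, encoded by Ngfr, binds all neurotrophins and their precursors. In cortex, Bdnf transcription is a classic response to neuronal activity, and cortical pyramidal neurons are a main source of the protein.

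The study treated mice with the stimulant methamphetamine (METH) or with saline. METH mice received 5 mg/kg intraperitoneally for 14 days, and Control mice received saline by the same route for the same time. All mice were wild-type C57BL/6 males of 2 months. Prefrontal tissue of 3 mice was pooled for each group, so that each group is 1 library. Mice were anesthetized with chloral hydrate, nuclei were purified on an iodixanol gradient, about 8000 were loaded per library, and a 3′ droplet kit counted molecules by unique molecular identifiers (UMIs). Barcodes in the matrix end in 1 of 2 numbers, and nothing in the labels says which of them is METH. The 2 libraries are therefore called library 1 and library 2, no difference between METH and Control is given, and the whole matrix is 1 pooled sample.

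Of 20766 barcodes with 66566100 UMIs, 18002 nuclei were kept, with a median of 2978 UMIs and 1764 genes. Library 1 gave 8003 of them and library 2 gave 9999, and 154 barcode sequences occurred in both libraries. The matrix held 9890 barcodes of library 1 and 10876 of library 2, more than the labelled 8000 nuclei loaded, and the reason was not tested. Clusters were named from marker genes, which gave 26 cell types, 23 of them with at least 100 nuclei. Names ending in "-like" rest on these markers alone, and clusters without a layer or subclass name are called by a leading gene. The libraries stand apart in places: 9 of 39 clusters, with 6902 nuclei, held over 90% of their nuclei from 1 library. Pairs of such clusters in layer 2/3-like, layer 4/5-like and layer 6 corticothalamic-like neurons and in oligodendrocytes received the same name and were merged, and values are given for each library. The 1408 striatal projection neuron-like nuclei had all 12 of their markers above 20 CPM although the labelled tissue is prefrontal cortex. The parvalbumin-like name rests on Btbd11, Cox6a2, Pthlh and Tmem132c, and Pvalb itself was not among the markers used for it. A level is the share of a gene in all UMIs of a cell type, scaled to 1000000 UMIs (CPM), with an exact Poisson 95% interval in parentheses that covers counting error only. RNA released from broken cells also reaches droplets, and for each gene and type an upper limit of that free RNA was set from genes that the type should not express.

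The ligands were rare and the Trk receptors common. The kept nuclei held 1221 UMIs of Bdnf in 945 nuclei and 226 UMIs of Ntf3 in 206 nuclei. Ntrk2 had 24436 UMIs in 10235 nuclei (56.9%), and Ntrk3 had 24709 UMIs in 9216 nuclei (51.2%). Ngfr had 18 UMIs, each in a different nucleus. Bdnf lay above the free RNA limit in 7 of the 26 types, Ntf3 in 5, Ntrk2 in 22, Ntrk3 in 20 and Ngfr in 1. The ligands were thus found in a few neuron types and both Trk receptors in most neuron types.

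**Figure D1:**
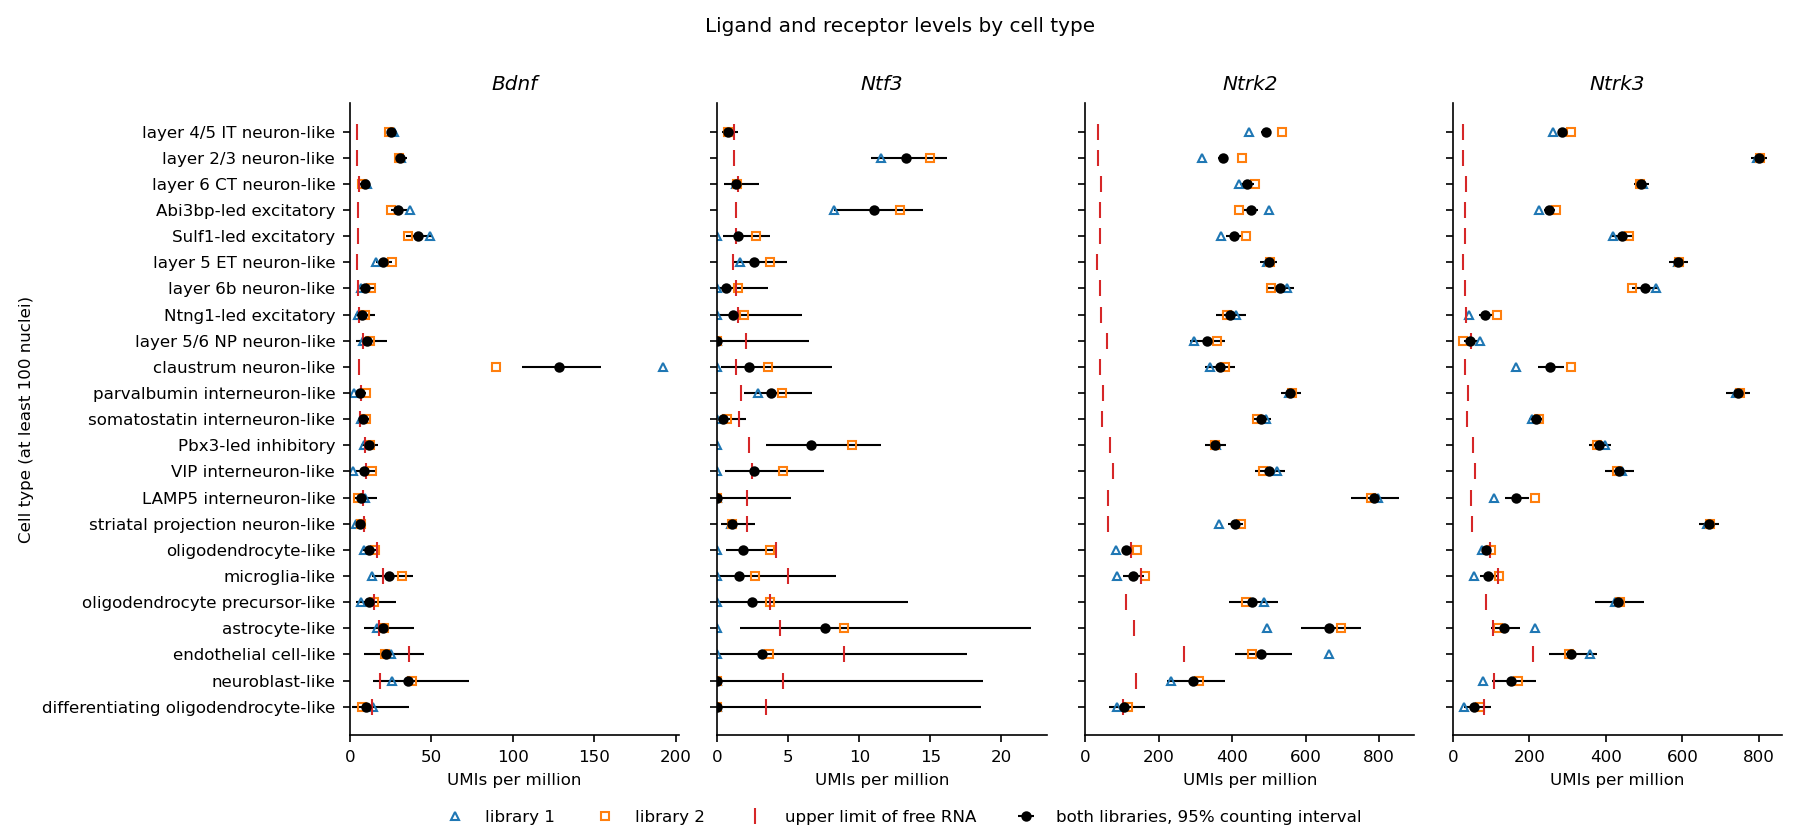
Levels of Bdnf, Ntf3, Ntrk2 and Ntrk3 (CPM, x axes with separate scales) in the 23 cell types of at least 100 nuclei. Black points give both libraries with 95% counting intervals, open symbols each library and red ticks the upper limit of free RNA. Bdnf is highest in claustrum-like neurons at 128 CPM, and Ntf3 in layer 2/3-like and Abi3bp-led neurons at 13.3 and 11.0 CPM.

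A member was said to have a clear highest type where the 95% interval of the ratio of its highest type to the next excluded 1. Of the 4 members with at least 50 UMIs, 3 had one (Bdnf, Ntrk2 and Ntrk3), against 22.4% of the 15944 genes measured. The call depends on how many UMIs a gene has, since more UMIs narrow the interval, and the genes compared were not matched for UMIs. Ntrk2 and Ntrk3, with 24261 and 24459 UMIs in named nuclei, were called at ratios of only 1.18 and 1.07. These shares therefore do not show that the members are more specific to a type than other genes. The same type was highest in both libraries for all 3 of them, against 20.8% of genes with a clear and repeated highest type. A clear ratio of at least 2-fold was found for Bdnf alone among the members, against 11.7% of genes.

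Bdnf, the TrkB ligand, is encoded on the plus strand of chromosome 2 (GRCm38, chr2:109674700-109727007), in a gene with several promoters that each start their own first exon. RefSeq lists 7 start sites in the table used here, and the 3′ counts join the transcripts of all of them. The 250 bases before the third start (GRCm38.p6, chr2:109692186-109692435, plus strand) are shown because they belong to the activity-regulated promoter of the exon commonly numbered IV. Capitals mark TCACGTCA, a match of the kind bound by the activity-regulated factor CREB, whose CGTCA begins at position -35 from the start.
Bdnf start 3: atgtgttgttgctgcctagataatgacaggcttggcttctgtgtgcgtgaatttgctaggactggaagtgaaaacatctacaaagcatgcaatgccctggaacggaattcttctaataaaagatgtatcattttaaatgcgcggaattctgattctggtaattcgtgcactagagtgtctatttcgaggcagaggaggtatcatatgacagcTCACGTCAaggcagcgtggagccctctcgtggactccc
The 250 bases before the first listed start of Ntf3, the TrkC ligand (GRCm38.p6, chr6:126166745-126166994, minus strand), hold no such match and are shown for comparison with the other ligand.
Ntf3 start 1: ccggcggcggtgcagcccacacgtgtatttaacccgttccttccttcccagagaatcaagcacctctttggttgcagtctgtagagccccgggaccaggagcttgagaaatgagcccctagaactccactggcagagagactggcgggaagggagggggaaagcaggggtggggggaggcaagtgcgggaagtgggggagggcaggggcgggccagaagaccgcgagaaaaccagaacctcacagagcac
The motif TGACG, searched on both strands (as TGACG or CGTCA), occurred in 1 of the 7 Bdnf windows, in neither of the 2 Ntf3 windows, and in neither the Ntrk2 nor the Ngfr window. It occurred in 17.8% of all 32851 windows of this length. The longer TCACGTCA, on both strands and overlapping the shorter motif, was picked after the window had been read and occurred in 0.35% of windows, and the palindrome TGACGTCA in 1.55%. A match describes letters only and shows no binding.

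Bdnf was concentrated in excitatory neurons, and most of all in claustrum-like neurons, a group of 174 nuclei marked by Nr4a2, Gnb4, Ntng2, Synpr, Oprk1 and Gng2. Its level there was 128 CPM (106–154), with 192 CPM (148–245) from library 1 and 89.5 CPM (66.4–118) from library 2. The next type, the Sulf1-led excitatory neurons, had 42.0 CPM (34.7–50.3), with 49.0 CPM from library 1 and 35.9 CPM from library 2. Claustrum-like neurons were the highest type in each library, although their levels in the libraries differed beyond the counting intervals. The ratio of the claustrum-like to the Sulf1-led level was 3.06 (2.34–3.99), with 3.93 in library 1 and 2.50 in library 2.

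Cortical projection neurons formed a middle range of Bdnf. Layer 2/3-like neurons had close values in the libraries, 31.5 CPM in the first and 30.4 CPM in the second. Pooled levels were 31.0 CPM (27.1–35.2) in layer 2/3-like, 29.9 CPM (25.1–35.3) in Abi3bp-led, 25.6 CPM (22.6–28.8) in layer 4/5-like and 20.7 CPM (16.2–26.1) in layer 5 extratelencephalic-like neurons. Neighbours in this range did not differ beyond counting error: the ratio of layer 2/3-like to Abi3bp-led neurons was 1.04 (0.836–1.29). The claustrum-like level was 4.14 times (3.28–5.20) that of layer 2/3-like neurons, with 6.10 in library 1 and 2.94 in library 2. The deepest cortical types were lower, at 9.10 CPM (6.53–12.3) in layer 6 corticothalamic-like and 9.52 CPM (5.33–15.7) in layer 6b-like neurons. Layer 2/3-like neurons had 3.40 times (2.43–4.86) the level of the corticothalamic-like type, with 3.04 in library 1 and 3.92 in library 2.

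Interneuron-like types had Bdnf levels between 6.46 CPM in the parvalbumin-like and 11.5 CPM in the Pbx3-led type, and striatal projection neuron-like nuclei 6.14 CPM, and none of these was above the free RNA limit. Layer 2/3-like neurons had 4.79 times (3.0–8.10) the level of parvalbumin-like interneurons, with 11.1 in library 1 and 3.1 in library 2. Microglia-like nuclei had 16 UMIs at 24.1 CPM (13.8–39.1) against a free RNA limit of 20.3 CPM, and astrocyte-like nuclei 8 UMIs at 20.1 CPM (8.70–39.7) against 18.0 CPM. For the glial types the counts therefore did not separate expression from free RNA. Excitatory neurons supplied 84.2% of all Bdnf UMIs in named nuclei and 66.5% of UMIs of all genes. Layer 4/5-like neurons, the largest neuron type, gave 22.6% of Bdnf UMIs, layer 2/3-like neurons 19.3% and claustrum-like neurons 9.54%, the last with 1.59% of UMIs of all genes.

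Within types, Bdnf UMIs fell into a minority of nuclei. A Bdnf UMI was seen in 58 of 174 claustrum-like nuclei, or 33.3%, against 34 of 3049 oligodendrocyte-like nuclei, or 1.12%, a type read here as background. Median depth was 4959.5 UMIs in the claustrum-like and 810 UMIs in the oligodendrocyte-like nuclei. With every nucleus thinned to 600 UMIs the shares were 6.90% and 0.63%. Of the 58 claustrum-like nuclei, 32 had 1 Bdnf UMI, 15 had 2 and 11 had 3 or more, with up to 9 in a nucleus. The tenth of claustrum-like nuclei with the most Bdnf UMIs held 56.5% of the type's Bdnf UMIs.

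Nuclei with a Bdnf UMI also held more transcripts of activity genes, the immediate-early and synaptic genes that neuronal firing is known to induce. In claustrum-like neurons, Fos, a component of the AP-1 transcription factor, was at 151 CPM in the 58 nuclei with Bdnf and 17.3 CPM in the 116 without, a ratio of 8.77 (4.38–19.4). In library 1, all 32 Fos UMIs of this type lay in the 24 nuclei with Bdnf and 0 in the 40 without. The library 2 levels were 87.9 CPM with Bdnf and 26.5 CPM without, a ratio of 3.31 (1.41–8.17). The direction was thus the same in both libraries, while the size differed. Arc, which regulates AMPA receptor endocytosis, was at 161 CPM with Bdnf and 51.8 CPM without, a ratio of 3.11 (1.94–5.05). Npas4, an activity-dependent transcription factor, was at 88.3 CPM with Bdnf and 15.5 CPM without, a ratio of 5.68 (2.61–13.7). This rested on library 1, with 20 UMIs with Bdnf and 1 without, while library 2 had 43.97 CPM with Bdnf and 21.2 CPM without, a ratio of 2.07 (0.677–6.33) that did not exclude 1. Nuclei with Bdnf were somewhat deeper, with medians of 5377.5 UMIs with Bdnf and 4805 without, and the part of depth in these ratios was not tested beyond scaling to CPM.

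A fold of at least 2 was used to count genes higher in nuclei with Bdnf. In claustrum-like neurons, 7 of the 9 activity genes with at least 20 UMIs passed it, against 2.01% of 7307 genes. In layer 2/3-like neurons, 6 of 11 passed it, against 1.51% of genes, and in Abi3bp-led neurons 6 of 11, against 1.95%. In Sulf1-led neurons the count was 5 of 11, against 1.85%, in layer 4/5-like neurons 3 of 11, against 1.4%, and in layer 5 extratelencephalic-like neurons 2 of 10, against 2.3%. Fos passed in all 6 types when the libraries were pooled, with ratios between 2.16 (1.34–3.37) in layer 4/5-like and 8.77 in claustrum-like neurons, but in each library only in the claustrum-like, Abi3bp-led and layer 5 extratelencephalic-like types. In layer 2/3-like neurons the Fos ratio was 0.95 (0.243–2.71) in library 1 and 5.22 (2.85–9.37) in library 2. Layer 4/5-like neurons had 1.62 (0.762–3.16) in library 1 and Sulf1-led neurons 1.90 (0.337–7.40) in library 2. Required in each library as well, the fold was passed by 6 of 9 activity genes in claustrum-like neurons, against 0.63% of genes, the missing gene being Nr4a1, with 0.956 (0.298–2.69) in library 2. The count in each library was 5 of 11 in Abi3bp-led neurons, against 0.668%, 3 of 11 in layer 2/3-like neurons, against 0.51%, and 2 of 11 in Sulf1-led neurons, against 0.493%. In layer 4/5-like neurons it was 2 of 11, against 0.449%, and in layer 5 extratelencephalic-like neurons 1 of 10, against 0.627%. The median ratio of the activity genes was 2.88 in claustrum-like and 2.08 in layer 2/3-like neurons, and that of all genes measured was 0.973 and 0.977 in the same types. Nptx2, a secreted pentraxin that gathers AMPA receptors at synapses, was at 50.6 CPM with Bdnf and 14.5 CPM without in layer 2/3-like neurons, a ratio of 3.49 (2.40–5.01). Homer1, a postsynaptic scaffold with an activity-induced short form, had pooled ratios of 1.71 (1.42–2.06) in claustrum-like and 1.54 (1.38–1.71) in layer 2/3-like neurons. The claustrum-like ratio was 3.08 (2.23–4.30) in library 1 and 1.24 (0.968–1.57) in library 2. Of the activity genes with a RefSeq window, Fos, Fosb, Junb, Nr4a1, Nr4a3 and Npas4 held TGACG or CGTCA in their single window, Homer1 in 1 of 2 and Inhba in none. The share over all windows was 17.8%. Egr1, Arc, Nptx2 and Vgf had no window, and no window of the activity genes held the palindrome TGACGTCA. Whether the motif bears on the levels in nuclei with Bdnf was not tested.

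Receptor levels also differed between these nuclei in several types. In layer 2/3-like neurons Ntrk2 was at 446 CPM with Bdnf and 365 CPM without, a ratio of 1.22 (1.10–1.36), and in Sulf1-led neurons at 524 CPM with Bdnf and 384 CPM without, a ratio of 1.37 (1.18–1.58). In claustrum-like neurons Ntrk2 was at 441 CPM with Bdnf and 324 CPM without, a ratio of 1.36 (1.09–1.70). The interval of the Ntrk2 ratio included 1 in library 1 for layer 2/3-like neurons, at 1.12 (0.94–1.32), and in library 2 for claustrum-like neurons, at 1.32 (0.991–1.75). In Abi3bp-led neurons the Ntrk2 ratio was 1.42 (1.18–1.70) in library 1 and 1.02 (0.84–1.23) in library 2. Layer 4/5-like neurons had Ntrk2 ratios of 1.08 (0.949–1.22) in library 1 and 1.13 (1.01–1.26) in library 2. Ntrk3 was lower with Bdnf in claustrum-like neurons, at 177 CPM with Bdnf and 297 CPM without, a ratio of 0.595 (0.432–0.809). That difference came from library 2, with a ratio of 0.51 (0.34–0.747), while library 1 had 163 CPM with Bdnf and 168 CPM without, a ratio of 0.971 (0.541–1.71). In layer 2/3-like neurons Ntrk3 was higher, at 894 CPM with Bdnf and 787 CPM without. The ratio was 1.14 (1.05–1.22), with 1.13 in library 1 and 1.15 in library 2. Layer 4/5-like neurons had an Ntrk3 ratio of 1.28 (1.16–1.42), with 1.20 in library 1 and 1.36 in library 2. In both types the interval excluded 1 in each library. Abi3bp-led neurons had 1.21 (1.01–1.43), but the interval included 1 in each library. The pooled interval included 1 in Sulf1-led and layer 5 extratelencephalic-like neurons.

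**Figure D2:**
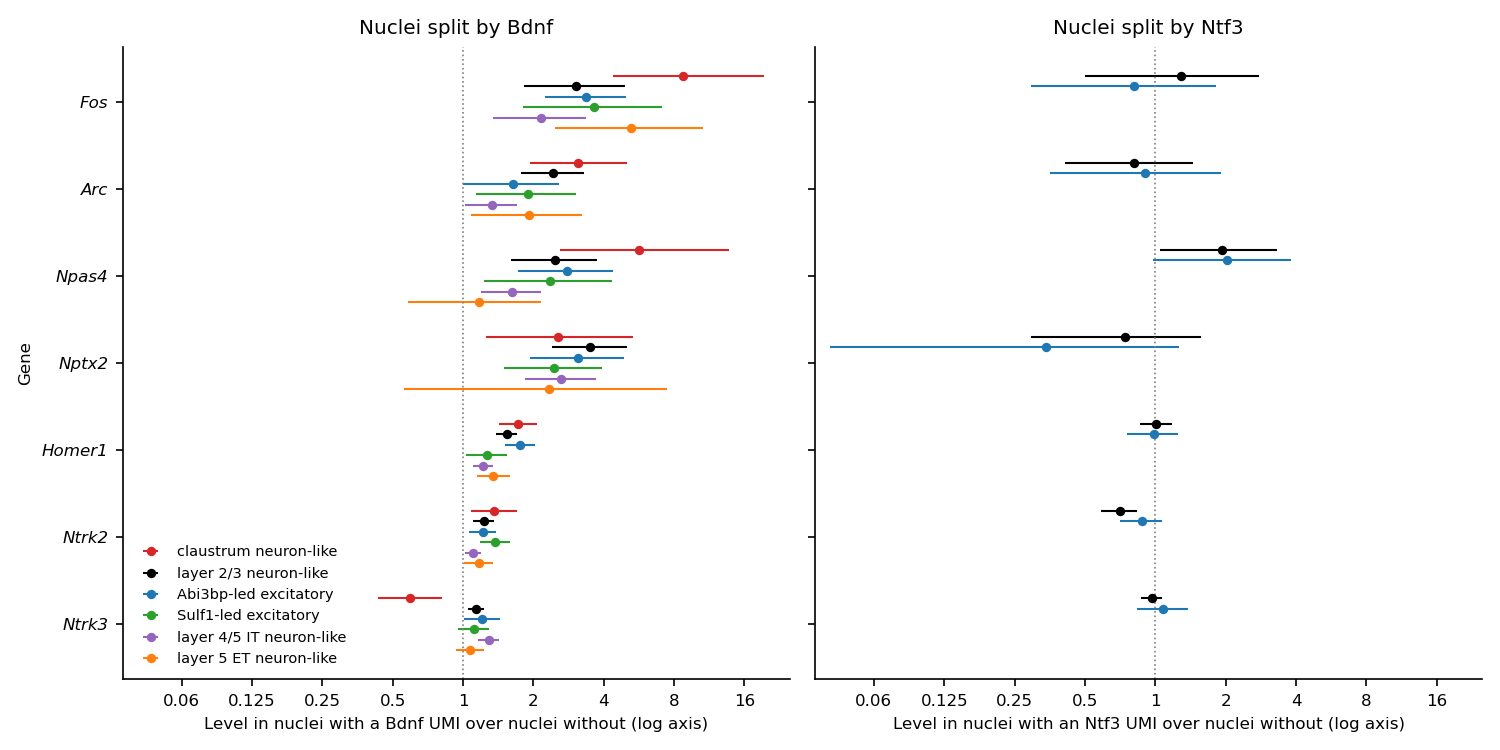
Level of 5 activity genes and the Trk receptors in nuclei with a Bdnf UMI over nuclei without (left) and in nuclei with an Ntf3 UMI over nuclei without (right), on log axes, with exact 95% counting intervals. Values pool both libraries. Fos ratios for Bdnf run from 2.16 to 8.77 over 6 neuron types, with 0.95 in library 1 and 5.22 in library 2 for layer 2/3-like neurons, and those for Ntf3 are 1.28 and 0.814 with intervals that include 1.

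Ntf3, the TrkC ligand, lies on the minus strand of chromosome 6 (GRCm38, chr6:126101412-126166910). It was above the free RNA limit in 5 types, against 7 for Bdnf. Named nuclei held 225 UMIs of Ntf3 and 1205 of Bdnf, and whether Ntf3 is narrower at like counts was not tested. Its level in layer 2/3-like neurons was 11.5 CPM (8.29–15.6) for library 1 and 15.0 CPM (11.4–19.3) for library 2, from 100 UMIs in all. The Abi3bp-led excitatory neurons had 8.22 CPM for library 1 and 12.9 CPM for library 2, from 51 UMIs. Pooled levels were 13.3 CPM (10.8–16.2) and 11.0 CPM (8.21–14.5), and their ratio of 1.20 (0.851–1.72) did not exclude 1. Both types were the highest and second in each library. Together they gave 67.1% of all Ntf3 UMIs, 44.4% and 22.7% for the layer 2/3-like and Abi3bp-led type.

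The step to the neighbouring layer was large. Layer 4/5-like neurons, with 2020 nuclei and 10641705 UMIs, had 8 Ntf3 UMIs at 0.752 CPM (0.325–1.48), which is below the free RNA limit of 1.14 CPM. The layer 2/3-like level was 17.7 times (8.63–42.1) the layer 4/5-like level, with 14.8 in library 1 and 20.6 in library 2, and the Abi3bp-led level was 14.7 times (6.91–35.8) it. The Bdnf levels of the same pair, given above, differed much less. Beyond these types, Ntf3 was above free RNA in the Pbx3-led inhibitory neurons at 6.59 CPM (3.41–11.5), in parvalbumin-like interneurons at 3.74 CPM (1.87–6.69) and in layer 5 extratelencephalic-like neurons at 2.59 CPM (1.18–4.91). All 12 Ntf3 UMIs of the Pbx3-led type were in library 2, which held 458 of its 678 nuclei. LAMP5-like interneurons had 0 UMIs, with an upper bound of 5.21 CPM, and near-projecting-like neurons 0 UMIs, with an upper bound of 6.46 CPM.

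An Ntf3 UMI was seen in 94 of 1531 layer 2/3-like nuclei, or 6.14%, and in 5 of 3049 oligodendrocyte-like nuclei, or 0.164%, at median depths of 4754 and 810 UMIs. No nucleus of the layer 2/3-like type held more than 2. Split by Ntf3, nuclei gave lower counts of activity genes than when split by Bdnf; the difference between the splits itself was not tested. In layer 2/3-like neurons, 0 of 11 measured activity genes were at least 2-fold higher with Ntf3, against 2.9% of genes, and in Abi3bp-led neurons 1 of 11 (Npas4), against 3.97%. Fos was at 14.2 CPM with Ntf3 and 11.1 CPM without in layer 2/3-like neurons, a ratio of 1.28 (0.50–2.77). Npas4 stood at 30.5 CPM with Ntf3 and 15.8 CPM without, a ratio of 1.93 (1.05–3.33). The interval for Fos is wide, so a ratio as large as 2 was not excluded by the counts. Ntrk2 was lower in layer 2/3-like nuclei with Ntf3, at 269 CPM with Ntf3 and 382 CPM without, a ratio of 0.703 (0.586–0.838). Only 11 nuclei held UMIs of both ligands, 1.18% of the nuclei with Bdnf, and 1.15% of the nuclei without Bdnf held Ntf3. These shares pool all types, at median depths of 4560.5 and 2889.5 UMIs. Within layer 2/3-like neurons, 4.0% (1.62–8.07) of nuclei with Bdnf and 6.42% (5.17–7.85) of those without held Ntf3. Abi3bp-led neurons had 2.97% (0.617–8.44) with Bdnf and 4.45% (3.24–5.94) without. The intervals overlapped in both types.

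Ntrk2, encoding TrkB, lies on the plus strand of chromosome 13 (GRCm38, chr13:58806569-59133970) and makes a full-length kinase form and shorter forms without the kinase, which 3′ counts per gene do not separate. Its levels were broad. LAMP5-like interneurons were highest at 787 CPM (723–855), with 797 CPM for library 1 and 778 CPM for library 2. Astrocyte-like nuclei followed at 665 CPM (587–750), with 495 CPM for the 50 nuclei of library 1 and 696 CPM for the 258 of library 2. The ratio of the LAMP5-like to the astrocyte-like level was 1.18 (1.02–1.38), and that of the astrocyte-like to the parvalbumin-like level was 1.19 (1.04–1.36). The first of these ratios was 1.12 in library 2 alone and 1.13 with at least 1000 genes per nucleus, where its interval included 1. In library 1 endothelial-like nuclei came next after LAMP5-like interneurons, at 663 CPM (433–972) from 26 UMIs. Parvalbumin-like interneurons had 559 CPM (532–586), layer 6b-like neurons 530 CPM (495–567), and VIP-like interneurons 501 CPM (461–543), with no neighbouring pair of these differing beyond counting error.

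Among excitatory neurons the pooled Ntrk2 level was highest in layer 6b-like neurons (in library 2 alone, in layer 4/5-like neurons, at 536 CPM against 505 CPM) and lowest in near-projecting-like neurons, at 331 CPM (286–382). Layer 4/5-like neurons had 493 CPM (480–506), which was 1.32 times (1.26–1.38) the 374 CPM (361–389) of layer 2/3-like neurons. The layer 2/3-like level itself differed between libraries beyond counting error, with 318 CPM (300.4–337) for library 1 and 427 CPM (407–448) for library 2. Claustrum-like neurons, the highest type for the ligand Bdnf, had an Ntrk2 level of 366 CPM (327–408), in the lower part of the neuronal range.

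Glia divided sharply for Ntrk2. Oligodendrocyte precursor-like nuclei had 454 CPM (391–524), and oligodendrocyte-like nuclei 111 CPM (99.5–124), a ratio of 4.07 (3.38–4.90). The astrocyte-like level was 5.97 times (5.05–7.05) the oligodendrocyte-like level. Oligodendrocyte-like, differentiating oligodendrocyte-like and microglia-like nuclei, the last at 129 CPM (103–160), were not above the free RNA limit. The endothelial-like nuclei, at 480 CPM (407–563), also held mural genes, and 170 of their 189 nuclei were in library 2.

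Ntrk3, encoding TrkC, lies on the minus strand of chromosome 7 (GRCm38, chr7:78175959-78738012) and was far more selective. Layer 2/3-like neurons had 800.3 CPM (780–821), with 796 CPM for library 1 and 804 CPM for library 2. Parvalbumin-like interneurons had 746 CPM (715–778), with 740.1 CPM for library 1 and 751 CPM for library 2. The libraries were closely alike in both types, and the ratio of the types was 1.07 (1.02–1.13). With finer clusters at double the resolution, the layer 2/3-like name took in other nuclei (2166 in all), and no cluster kept the parvalbumin-like name. Among the types named there, striatal projection neuron-like nuclei led with 675 CPM over 651 CPM in layer 2/3-like neurons, a ratio of 1.04 (0.99–1.09). Parvalbumin-like interneurons were not part of that comparison. Striatal projection neuron-like nuclei had 670.1 CPM (645–696) and layer 5 extratelencephalic-like neurons 589 CPM (564–615), each step down from layer 2/3-like neurons excluding a ratio of 1.

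Adjacent neuron types differed much more in Ntrk3 than in Ntrk2. The layer 2/3-like level of Ntrk3 was 2.79 times (2.68–2.92) the 286 CPM of layer 4/5-like neurons, with 3.05 in library 1, 2.60 in library 2 and 2.32 at double the resolution. It was 3.17 times (2.98–3.38) the 252 CPM of the Abi3bp-led neurons, the other Ntf3-rich type. Near-projecting-like neurons had 26 UMIs at 45.6 CPM (29.8–66.8), not above the free RNA limit of 47.0 CPM, and the layer 2/3-like level was 17.6 times (12.0–26.9) theirs, with 11.2 in library 1 and 32.0 in library 2. The Ntng1-led excitatory neurons were also low, at 84.9 CPM (67.2–106), with 42.7 CPM for library 1 and 116 CPM for library 2.

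Interneurons separated by class as well. The parvalbumin-like level of Ntrk3 was 3.44 times (3.14–3.77) the 217 CPM of somatostatin-like interneurons and 4.51 times (3.75–5.48) the 165 CPM of LAMP5-like interneurons, the last with 6.90 in library 1 and 3.5 in library 2. LAMP5-like interneurons, the highest type for Ntrk2, were thus near the low end of neurons for Ntrk3. Oligodendrocyte precursor-like nuclei had 432 CPM (371–500) of Ntrk3 and oligodendrocyte-like nuclei 87.5 CPM (76.9–99.1), a ratio of 4.94 (4.05–6.01). Astrocyte-like nuclei, at 133 CPM (99.98–175), were not above the free RNA limit. Among types under 100 nuclei, the 68 fibroblast-like nuclei had 72 UMIs at 685 CPM (536–862).

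The balance of the Trk receptors was expressed as the percent of Ntrk3 among the UMIs of Ntrk2 and Ntrk3. Counts were not corrected for gene length (327.4 kb for Ntrk2 and 562.1 kb for Ntrk3), so the percent is compared between types and not read as a ratio of proteins. It was 68.1% (67.1–69.1) in layer 2/3-like, 62.1% (60.6–63.6) in striatal projection neuron-like and 57.2% (55.6–58.7) in parvalbumin-like nuclei. With the wider layer 2/3-like name at double the resolution its percent was 61.8% (60.9–62.7). At the other end were somatostatin-like interneurons with 31.1% (29.0–33.2), LAMP5-like interneurons with 17.4% (14.6–20.4), astrocyte-like nuclei with 16.7% (12.8–21.3) and near-projecting-like neurons with 12.1% (8.05–17.2). The order of layer 2/3-like, parvalbumin-like, somatostatin-like and LAMP5-like nuclei was the same in both libraries. At this low end the libraries differed. Astrocyte-like nuclei had 30.2% in library 1 and 14.6% in library 2, and near-projecting-like neurons 19.4% and 6.56%. LAMP5-like interneurons had 11.9% in library 1 and 21.6% in library 2, and Ntng1-led neurons 9.44% and 23.2%. Near-projecting-like neurons were therefore not the lowest type in library 1. Ntrk3 was not above the free RNA limit in astrocyte-like and near-projecting-like nuclei, so their percents were not separated from free RNA.

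**Figure D3:**
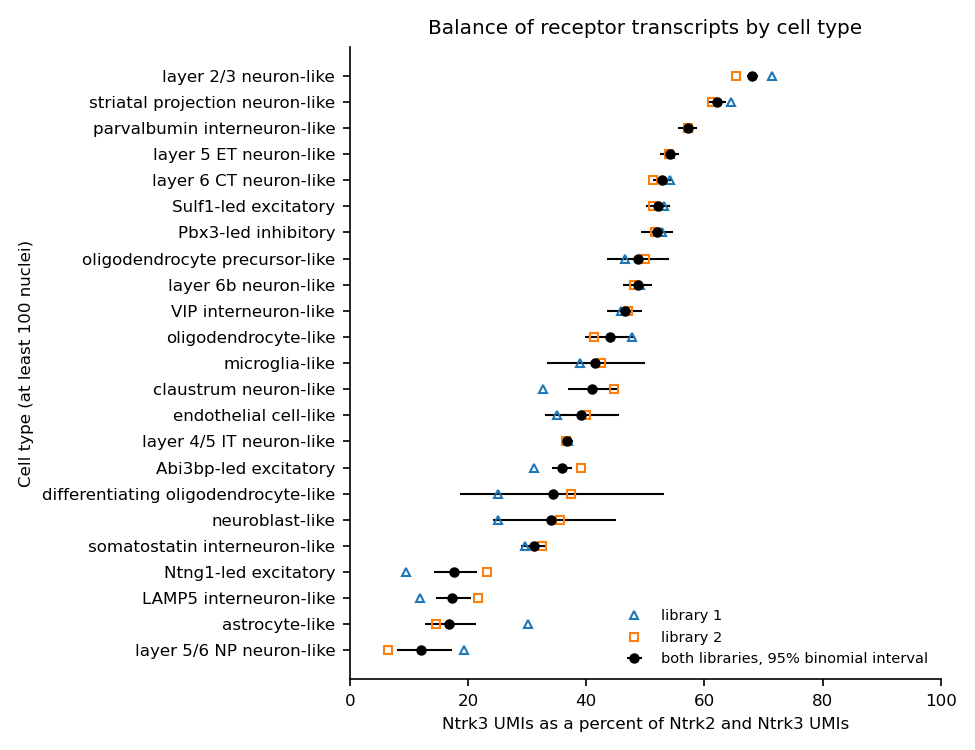
Percent of Ntrk3 among Ntrk2 and Ntrk3 UMIs (x axis) in the 23 cell types of at least 100 nuclei. Black points give both libraries with exact binomial 95% intervals and open symbols each library. With both libraries pooled, the percent runs from 68.1% in layer 2/3-like to 12.1% in near-projecting-like neurons.

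Both Trk receptors were often found in nuclei with a ligand. Of 934 named nuclei with Bdnf, 721 (77.2%) also had Ntrk2, against 56.1% of nuclei without Bdnf, at median depths of 4560.5 and 2889.5 UMIs. Within layer 2/3-like neurons, where depths were alike, the shares with Ntrk2 were 82.3% (75.8–87.6) with Bdnf and 76.2% (73.8–78.4) without. Of 94 layer 2/3-like nuclei with Ntf3, 92 had Ntrk3, against 95.8% of those without Ntf3. The layer 2/3-like type thus held the highest levels of both Ntf3 and its receptor gene. The Abi3bp-led type held as much Ntf3 within error and less Ntrk3, with an Ntrk3 UMI in 30 of its 46 nuclei with Ntf3.

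Ngfr, encoding p75, lies on the minus strand of chromosome 11 (GRCm38, chr11:95568818-95587735) and was nearly absent from the counts. Cholinergic-like neurons, which in the basal forebrain are known to carry p75, had 2 UMIs in 58 nuclei at 5.69 CPM (0.688–20.5), 1 in each library. This was the sole type above the free RNA limit for Ngfr. Oligodendrocyte-like nuclei had 3 UMIs, astrocyte-like nuclei 2, and no other type more than 2. Layer 4/5-like neurons had 0 UMIs, with an upper bound of 0.347 CPM. No order of types can be read from these counts.

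Ntf5, encoding neurotrophin-4, another TrkB ligand, was listed for context. It had at most 5 UMIs in a type, those in layer 4/5-like neurons, so that no order of types can be read for it.

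Genes whose levels over the 23 types were most like those of each member were ranked by Pearson's r of log2 CPM with 10 added, among 12676 genes. For Bdnf these were Mgat5, a Golgi glycosyltransferase (r = 0.854), the immediate-early transcription factor Egr4 (r = 0.84) and the activity-induced antiproliferative gene Btg2 (r = 0.795), each highest in claustrum-like neurons. For Ntf3 they were Gm44899 (r = 0.696), the transcription factor Glis3 (r = 0.68) and the synaptotagmin Syt17 (r = 0.677). Gm44899 and Glis3 were highest in astrocyte-like nuclei, where Ntf3 had 3 UMIs. For Ntrk2 they were the catenin Ctnnd2 (r = 0.914), the Trk adaptor Shc3 (r = 0.887) and Azin2 (r = 0.871), and for Ntrk3 Gm48236 (r = 0.815), the kainate receptor partner Neto1 (r = 0.813) and Agbl1 (r = 0.767). These values describe 23 types that share libraries and free RNA. Gm48236 reached at most 6.87 CPM in any of them, below the 10 added, so its coefficient rests on low counts. Between members the coefficient was 0.545 for Ntrk2 and Ntrk3, 0.368 for Ntf3 and Ntrk3 and -0.08 for Bdnf and Ntrk2.

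Genes that act around the neurotrophins were grouped by role, and each group is set against the 22.4% of genes with a clear highest type. Of 12 measured genes for processing and sorting, 4 had one. Cadps2, which promotes dense-core vesicle release and has been tied to Bdnf secretion in mice, was highest in claustrum-like neurons at 1175 CPM, 2.28 times (2.11–2.46) the level of layer 5 extratelencephalic-like neurons. The proconvertase Pcsk5 was highest in layer 6b-like neurons at 501 CPM, 1.80 times (1.51–2.15) near-projecting-like neurons. Serpini1, a neuronal inhibitor of tissue plasminogen activator, was highest in Ntng1-led neurons at 967 CPM, 1.64 times (1.51–1.78) somatostatin-like interneurons.

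Of 5 receptors of the VPS10 sorting family, 2 had a clear highest type: Sorcs3 in VIP-like interneurons at 681 CPM, 1.59 times (1.43–1.76) layer 6b-like neurons, and Sorcs1 in layer 5 extratelencephalic-like neurons at 1172 CPM, 1.09 times (1.02–1.16) VIP-like interneurons. Sorl1 was also highest there, at 189 CPM, 1.20 times (0.962–1.51) near-projecting-like neurons. Of 28 Trk adaptors and signalling genes, 4 had one. Sh2b2, an adaptor of receptor tyrosine kinases, was highest in microglia-like nuclei at 46.6 CPM, 3.63 times (1.90–7.24) VIP-like interneurons, as was Dusp6, a phosphatase of ERK, at 85.7 CPM, 1.79 times (1.05–3.19) astrocyte-like nuclei. Kidins220, a scaffold that binds Trk receptors, was highest in LAMP5-like interneurons at 644 CPM, 1.25 times (1.12–1.39) somatostatin-like interneurons. The LAMP5-like type was thus highest for Ntrk2 and Kidins220, of which Kidins220 was picked after its values were seen, as were Sorcs1 and Rtn4r.

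Of 14 partners of p75, 3 had a clear highest type. Rtn4rl1, a Nogo receptor homologue, was highest in microglia-like nuclei at 183 CPM, 2.22 times (1.81–2.70) layer 2/3-like neurons. Traf6, an adaptor of p75, was highest in oligodendrocyte-like nuclei at 59.6 CPM, 1.65 times (0.97–3.01) their precursors. Rtn4r, the Nogo receptor, was highest in claustrum-like neurons at 203 CPM, 1.44 times (1.20–1.72) Sulf1-led neurons. Of 13 regulators of Trk receptors, 5 had one. The kinase gene Fyn, which was also a naming marker, was highest in differentiating oligodendrocyte-like nuclei, Cyfip1, a translation and actin regulator, in microglia-like nuclei at 439 CPM, 2.59 times (2.12–3.17) claustrum-like neurons, and the phosphatase receptor Ptprd in Ntng1-led neurons at 2.39 times (2.36–2.41) layer 4/5-like neurons. Of the 12 activity genes, 6 had a clear highest type. The highest level lay in claustrum-like neurons for 5 of the 12, but the share of all genes highest there was not computed. Fos was among the 5 at 64.7 CPM, 2.28 times (1.65–3.13) the Abi3bp-led level. Fosb was at 10.0 CPM, 2.86 times (0.593–27.2) the near-projecting-like level. Among the 5, the interval excluded 1 for Fos, Homer1 and Arc, but the highest type of Arc was not the same in both libraries. The interval included 1 for Fosb and for Npas4, at 1.005 times (0.522–2.06) the endothelial-like level. The claustrum-like type was thus clearly highest for Bdnf, Fos and Homer1, and whether the level of Bdnf there moves with activity was not tested.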

How the data were processed

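The authors deposited raw UMI counts in 1 matrix of whole numbers. Per the submitters' processing notes, the tools were Cell Ranger 1.3.0, Seurat 3.1.4 and the build mm10, and per the file headers the matrix was written by software version 3.1.0. Barcodes under 500 genes were dropped, as were 1549 doublets that Scrublet (Scanpy 1.11.5) called within each library. Leiden clustering (resolution 2, 40 principal components, 20 neighbours) left the members and listed genes out of the variable genes. A cluster took the name of its best marker list, with at least 3 markers detected and a score at least 1.4 times the next, a margin set after the clusters were seen. The 236 nuclei of 4 unnamed clusters were left out.

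UMIs were summed per type, with exact Poisson, exact conditional (ratios) and Clopper-Pearson (shares) 95% intervals in SciPy 1.17.1. The intervals cover counting error alone; nuclei do not replicate a condition, and no p-value is given. Similar genes were the 3 with the highest r, and of each list the 2 or 3 genes with the highest ratios were named, with exceptions stated. Steps were tested on simulated data. Members, lists and tests were chosen with earlier results of these data known, and the split of nuclei by a ligand was added after values were seen. Promoter sequences are RefSeq's (GRCm38.p6), matched for 4 of 5 members by symbol, and gene positions are from GENCODE. METH was not set against Control, since the labels do not say which library is which. Some genes of the family are not reported here.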

Additional observations from a re-analysis of the deposited data

How the results depend on the processing

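Of 98 values recomputed under an alternative, 79 stayed within the counting interval of the reported value or, for counts, within 1.5 times of it, 19 moved out of it and 0 changed sign. The alternatives were each library alone, at least 1000 genes per nucleus, doublets kept, clustering at resolutions 1 and 4 in place of 2, per-nucleus means, subtraction of free RNA, thinning, and a naming margin of 1.5 that was added after the data were seen. All 13 values under that margin equalled the reported ones and so say nothing about stability. The log2 ratio for Ngfr had an interval from -3.59 to 6.56, so that a move from 0.67 to 4.22 with per-nucleus means still counted as within it. The log2 ratio of the same pair of types, LAMP5-like over astrocyte-like for Ntrk2, moved to 0.69 in library 1 alone, against 0.24, although endothelial-like nuclei, with 663 CPM, and not astrocyte-like nuclei, with 495 CPM, came next there. For Ntrk3 the log2 ratio of layer 2/3-like over parvalbumin-like nuclei moved to 0.20 with per-nucleus means, against 0.10. The share of Bdnf UMIs from excitatory neurons was 91.0% in library 1, 78.3% in library 2 and 89.5% with at least 1000 genes, against 84.2%. For Ntf3 the share from layer 2/3-like and Abi3bp-led neurons was 78.1% in library 1, against 67.1%. The share of Bdnf nuclei with Ntrk2 was 82.3% with at least 1000 genes, against 77.2%. Thinning to 600 UMIs lowered the shares of nuclei with a UMI to 6.90% for Bdnf (claustrum-like), 1.502% for Ntf3 and 36.7% for Ntrk3 (layer 2/3-like), 34.5% for Ntrk2 (LAMP5-like) and 0.0% for Ngfr (astrocyte-like), as fewer UMIs were drawn. The number of members with a clear highest type was 2 in each library alone, with at least 1000 genes and at double the resolution, against 3. The Fos ratio in claustrum-like nuclei by Bdnf had a log2 of 1.73 in library 2, against 3.13, and in library 1 one side was 0, so no value was set. At double the resolution Abi3bp-led neurons and parvalbumin-like interneurons lost their own names. Ratios resting on them, such as that of Ntrk3 in layer 2/3-like over parvalbumin-like nuclei, could not be given and are not among the 98. For causes other than the construction of an alternative, the cause was not tested. No paired analysis was possible because each group has 1 library and no label gives a replicate number shared between groups. Depth limits Ngfr, with 18 UMIs, and Ntf3 outside its highest types.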
